A study of Mus musculus with 55 samples.

Results

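The genes described here are 10 members of the Cyp2c family on mouse chromosome 19, taken by symbol from the 37620 genes of the deposited tables. They are Cyp2c29, Cyp2c37, Cyp2c38, Cyp2c40, Cyp2c44, Cyp2c50, Cyp2c54, Cyp2c67, Cyp2c68 and Cyp2c70, out of 15 annotated genes whose symbol begins with Cyp2c. They were measured by RNA-sequencing in whole livers of 55 naive male mice from 29 Collaborative Cross (CC) lines. The CC lines are recombinant inbred lines bred from 8 founder strains. Of these, 5 are laboratory strains (A/J, C57BL/6J, 129S1/SvImJ, NOD/ShiLtJ and NZO/HlLtJ), and the wild-derived founders are CAST/EiJ, WSB/EiJ and PWK/PhJ. Each group is 1 line, named IL with a number, and no mouse was treated. The mice were between 8 and 11.9 weeks old and weighed between 12.8 and 38 g. The lines had been inbred for different numbers of generations, and their genotypes were not used here. Of the 29 lines, 8 had 1 mouse, 16 had 2 and 5 had 3. Between 20.5 and 34.0 M fragments per mouse were assigned to genes.

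Cytochromes P450 of the Cyp2c family are membrane-bound monooxygenases of the hepatocyte that oxidize drugs, steroids and fatty acids with electrons supplied through P450 oxidoreductase and cytochrome b5. Several of them turn arachidonic acid into epoxyeicosatrienoic or hydroxyeicosatetraenoic acids, lipid mediators of vessel tone and inflammation. In the liver many of them respond to the nuclear receptors CAR and PXR, differ between the sexes, and are most abundant in hepatocytes around the central vein.

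Each of the 10 genes had fragments in every mouse, 19.2 or more. The total-expression level is given in FPKM (fragments relative to transcript length and library size), a unit that allows levels of different genes to be compared. The expression of 4 of the 5 mice of IL-1052 and IL-2750 was nearest to a mouse of the other of these lines. Over 5949 total-expression traits, the mouse most like mouse 4302 of IL-1052 was mouse 4429 of IL-2750 (Spearman's rho 0.972), and its line mate 4303 came 13th of the 54 other mice (0.913). The mouse most like 4303 was mouse 4430 of IL-2750, with 0.955. Both relations held in the other direction as well, whereas mouse 4431 of IL-2750 was nearest to its line mate 4429 (0.968). Among the members, mice 4303 and 4430 had Cyp2c50 levels of 227 and 266 FPKM, while mice 4302, 4429 and 4431 had 475, 665 and 688 FPKM. For Cyp2c38 the former had 0.26 and 0.49 FPKM and the latter 3.22, 10.4 and 7.54 FPKM. The labels were kept, and ratios between lines, correlations and shares in which these lines take part are given without them as well where they set an extreme or a relation described below.

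In genome build NCBI37 (mm9), 9 of the genes lie in 1 cluster on chromosome 19 and Cyp2c44 lies apart on the same chromosome. Cyp2c29 (ENSMUSG00000003053), which oxidizes arachidonic acid and is a classical CAR target, spans chr19:39315441-39405189 on the plus strand. Cyp2c38 (ENSMUSG00000032808), an arachidonic acid epoxygenase, spans chr19:39464046-39537565 on the minus strand. Cyp2c67 (ENSMUSG00000062624), Cyp2c68 (ENSMUSG00000074882) and Cyp2c40 (ENSMUSG00000025004) follow on the minus strand at chr19:39683332-39723541, chr19:39763324-39815544 and chr19:39841561-39887304. Cyp2c40 makes hydroxyeicosatetraenoic acids, whereas the substrates of the other two are little known. Next come Cyp2c37 (ENSMUSG00000042248) at chr19:40066909-40086738 on the plus strand, Cyp2c54 (ENSMUSG00000067225) at chr19:40112431-40148301 on the minus strand and Cyp2c50 (ENSMUSG00000054827) at chr19:40164178-40188440 on the plus strand, all of which oxidize arachidonic and linoleic acid. Cyp2c70 (ENSMUSG00000060613), the enzyme that makes muricholic acids, the rodent bile acids, spans chr19:40227843-40261823 on the minus strand. Cyp2c44 (ENSMUSG00000025197), an epoxygenase studied in kidney and vessels, spans chr19:44079512-44103737 on the minus strand.

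By sequence 6 of the genes fall into 2 near-identical sets, which bears on their values below. The coding sequences of Cyp2c40, Cyp2c67 and Cyp2c68 were 97.15% to 98.1% identical to each other. Those of Cyp2c37, Cyp2c50 and Cyp2c54 were 95.1% to 96.1% identical. The closest relative of Cyp2c38 was Cyp2c39, with 94.2%. Of all 50-base windows of the leading transcript, the length of 1 read, 72.1% of those of Cyp2c40 also occurred in another gene, as did 53.5% of those of Cyp2c67 and 43.3% of those of Cyp2c68. The shares were 29.2% for Cyp2c37, 30.7% for Cyp2c50, 25% for Cyp2c54, 7.45% for Cyp2c38 and 0.53% for Cyp2c29. No window of Cyp2c44 or Cyp2c70 occurred without a mismatch in another gene searched. The search covered protein-coding transcripts and the annotated Cyp2c transcripts, and left out all other genes. The split of fragments is uncertain for members with shared windows. The shares of single windows do not measure by how much, since each fragment was read from both ends. Founder alleles that differ from the reference were not taken into account.

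The resemblance can be seen in exon 5, which 1 annotated form of Cyp2c37 and 1 of Cyp2c50 leave out and which is taken up again with the isoforms. It is 177 bases long in all 3 genes, a length divisible by 3. It lies at chr19:40070202-40070378 (plus strand) in Cyp2c37, chr19:40166694-40166870 (plus strand) in Cyp2c50 and chr19:40144658-40144834 (minus strand) in Cyp2c54. Capitals mark the 13 positions at which the 3 exons are not all alike.
Cyp2c37 exon 5: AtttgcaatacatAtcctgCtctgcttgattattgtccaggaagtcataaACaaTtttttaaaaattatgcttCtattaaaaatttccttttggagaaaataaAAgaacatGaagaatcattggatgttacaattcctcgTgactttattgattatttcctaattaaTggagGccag
Cyp2c50 exon 5: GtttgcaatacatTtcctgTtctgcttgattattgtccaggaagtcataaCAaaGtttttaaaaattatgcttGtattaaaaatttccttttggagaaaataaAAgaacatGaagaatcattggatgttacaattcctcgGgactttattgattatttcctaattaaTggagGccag
Cyp2c54 exon 5: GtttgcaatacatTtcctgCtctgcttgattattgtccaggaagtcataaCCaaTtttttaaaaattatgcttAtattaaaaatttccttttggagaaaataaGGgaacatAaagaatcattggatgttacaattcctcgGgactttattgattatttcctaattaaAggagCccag
Cyp2c37 and Cyp2c50 differ at 8 of these positions, Cyp2c37 and Cyp2c54 at 10, and Cyp2c50 and Cyp2c54 at 9.

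The windows from 250 bases before to 50 after each annotated gene start were searched on both strands for 4 motifs. The HNF4-type motif CAAAGTCCA was present in 4 of the 10 genes, against 0.456% of 22375 protein-coding genes. It is shown in capitals with 25 bases on each side, since 3 of the 4 windows come from the near-identical set.
Cyp2c40, chr19:39887316-39887374 (minus strand): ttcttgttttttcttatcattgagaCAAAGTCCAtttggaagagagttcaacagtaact
Cyp2c67, chr19:39723624-39723682 (minus strand): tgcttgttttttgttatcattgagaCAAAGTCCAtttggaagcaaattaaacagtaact
Cyp2c68, chr19:39815635-39815693 (minus strand): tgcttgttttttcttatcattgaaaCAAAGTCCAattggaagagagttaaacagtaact
Cyp2c70, chr19:40261807-40261865 (minus strand): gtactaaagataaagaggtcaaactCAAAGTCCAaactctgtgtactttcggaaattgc
TATAAA was found in 4 members (13.4% of all windows), GTTAAT, an HNF1 motif, in 2 (6.24%) and AGGTCA, a nuclear receptor motif, in 2 (14.4%). Relative to the gene start, TATAAA lay at -31 to -26 in Cyp2c38 and Cyp2c67. It lay after the start in Cyp2c40, at 40 to 45, and in Cyp2c70, at 18 to 23 on the opposite strand. The windows of Cyp2c37, Cyp2c50 and Cyp2c54 held none of the 4 motifs, and were 79.75% to 84.29% identical to each other.

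Cyp2c29 was the most abundant member, at 1148 ± 545 FPKM (SD over the 29 line means). Cyp2c70 followed with 405 ± 104, Cyp2c67 with 331 ± 150 and Cyp2c50 with 313 ± 142 FPKM. Cyp2c54 stood at 162 ± 78.0, Cyp2c68 at 117 ± 56.0 and Cyp2c44 at 114 ± 95.2 FPKM. The lowest were Cyp2c37 with 67.0 ± 46.2, Cyp2c40 with 33.8 ± 47.1 and Cyp2c38 with 23.5 ± 24.2 FPKM. The SD of Cyp2c38 and Cyp2c40 exceeded their mean. Summed over the 10 genes, the line means ran from 1563 FPKM in IL-519 to 4372 FPKM in IL-4032. Within that sum Cyp2c29 supplied 40.3% ± 10.6, and it was the highest of the 10 genes in 25 of the 29 lines. Cyp2c70 was highest in 2 lines and Cyp2c67 in 2. The share of Cyp2c44 ran from 0.29% in IL-1061 to 17.6% in IL-2146.

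**Figure D1:**
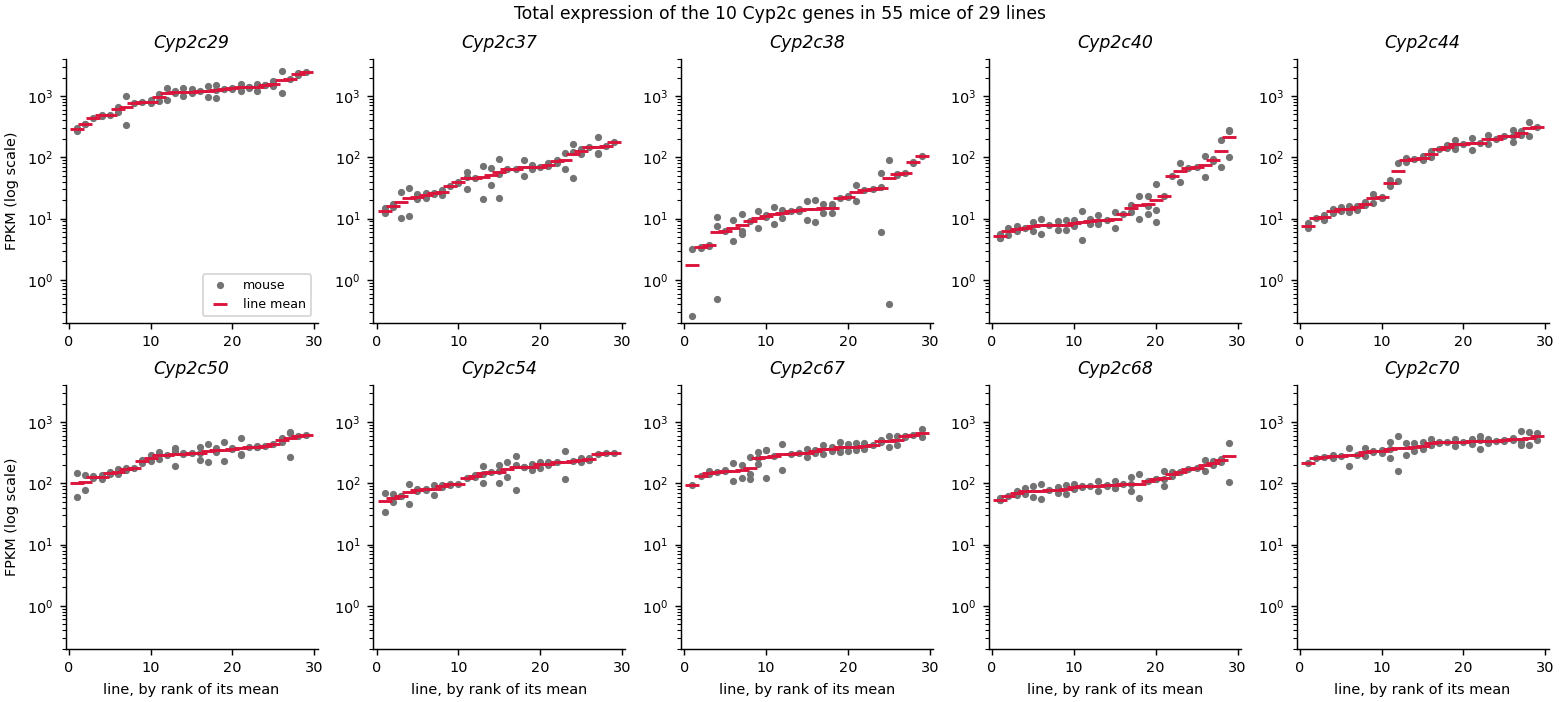
Total expression of each gene in FPKM on a logarithmic axis, with 1 grey point for each of the 55 mice and a red bar for each of the 29 line means, ordered within each panel from the lowest to the highest line. Cyp2c44 spans 6.98 to 377 FPKM with mice of a line close together, whereas single mice of Cyp2c38 fall to 0.26 FPKM.

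**Figure D2:**
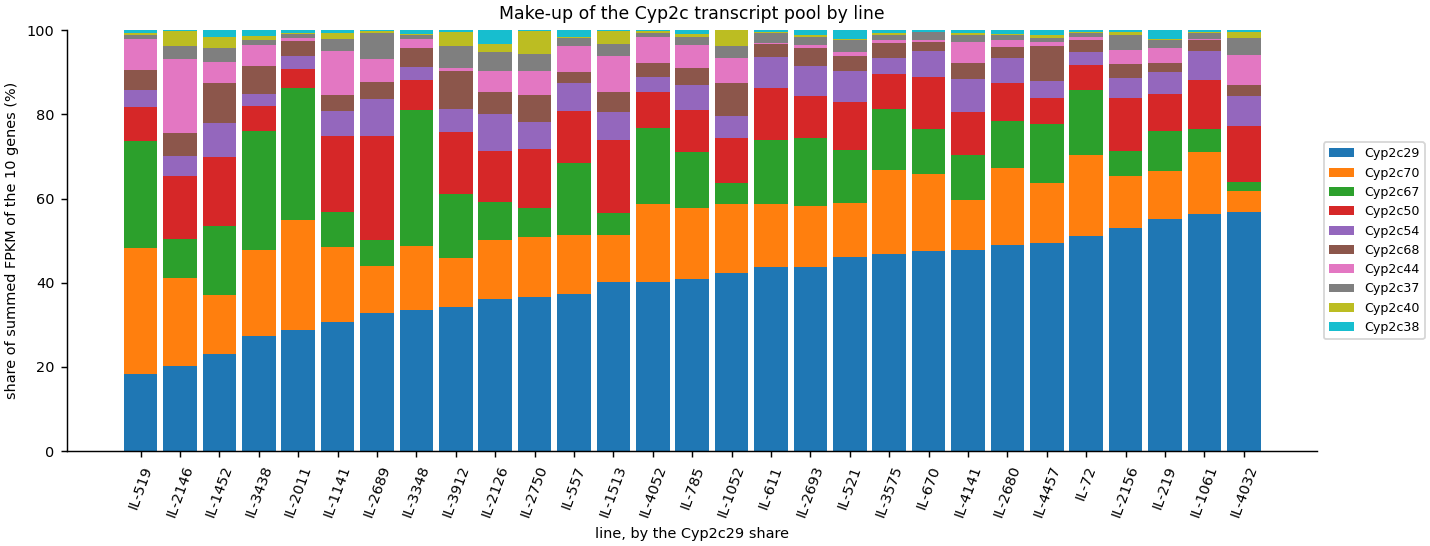
Share of each gene in the summed FPKM of the 10 genes, averaged over the mice of a line, for the 29 lines ordered by the share of Cyp2c29. Bars add to 100%, and the share of Cyp2c29 grows from 18.4% in IL-519 to 56.8% in IL-4032.

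The question of the comparison among lines is how far inherited differences show in the liver. With edgeR's quasi-likelihood F test (Benjamini-Hochberg adjustment over 15285 genes, 47 mice of the 21 lines with 2 or more mice), 9 of the 10 genes differed among lines. The same test called 88.5% of all genes, so that this count does not set the members apart. The median F was 6.90 for the members and 4.17 for all genes. What litters or cages add to a line cannot be told apart from its genotype, since the labels name neither, and in whole liver fewer cells of a type and less RNA per cell cannot be told apart.

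The intraclass correlation, the part of the variance that lies between lines, was 0.635 at the median over the 10 genes and 0.592 over all 5949 total-expression traits. The highest line mean exceeded the lowest 7.92-fold at the median of the members and 2.53-fold at the median of 5771 traits. The members were thus spread more widely than the median trait, with an intraclass correlation inside the quartiles of all traits, 0.486 to 0.693.

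Cyp2c44 repeated best among line mates, with an intraclass correlation of 0.919 (adjusted p = 1.5e-18 in edgeR). The study had selected this gene for its total expression, so its rank is not independent evidence. In 10 lines every mouse was between 6.98 and 25.1 FPKM, and in 17 lines the line mean was 90.5 FPKM or more. The 2 lines between were IL-3348, with 33.7 and 43.1 FPKM, and IL-2680, with 40.3 and 80.9 FPKM. The step from IL-521, whose mice had 21.5 and 22.7 FPKM, to IL-3348 was the widest between neighbours, at 2.78 standard errors of their difference on log2(FPKM + 1). Of the 28 pairs of neighbouring lines, 5 were more than 1 standard error apart. At the upper end IL-2146 had 377 and 221 FPKM, and IL-4032, with 1 mouse, had 316 FPKM.

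Cyp2c29 ranged from 304 and 265 FPKM in the mice of IL-519 to 2482 FPKM in IL-4032, an 8.72-fold difference (adjusted p = 2.98e-07 in edgeR). The mice of IL-2146 were also low, with 343 and 350 FPKM, although they were among the highest in Cyp2c44. Line mates could differ in this gene too. Mice 4238 and 4239 of IL-2680 had 2527 and 1134 FPKM, and the largest ratio within a line was 2.92, in IL-2011. No pair of neighbouring lines was more than 1 standard error apart.

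Cyp2c37, Cyp2c50 and Cyp2c54 shared their extremes in part. Cyp2c37 was lowest in IL-519, with 14.7 and 12.4 FPKM, and highest in IL-4032, with 175 FPKM (12.9-fold). Cyp2c50 ran from 60.8 and 145 FPKM in IL-2011 to 609 FPKM in IL-2689 (5.92-fold). Cyp2c54 ran from 34.6 and 69.9 FPKM in IL-3438 to 311 FPKM in IL-4032 (5.95-fold). IL-4032 and IL-2689 had 1 mouse each and were not in the edgeR test of the 21 lines with 2 or more mice. That test gave adjusted p-values of 6.48e-06 for Cyp2c37, 1.87e-05 for Cyp2c50 and 1.05e-05 for Cyp2c54. The 3 mice of IL-785 showed how widely a line could scatter. They had 21.5, 54.2 and 95.0 FPKM of Cyp2c37 and 78.9, 197 and 277 FPKM of Cyp2c54. The mouse that was lowest in one gene was lowest in the other. In none of these 3 genes was any pair of neighbouring lines more than 1 standard error apart.

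Cyp2c40, Cyp2c67 and Cyp2c68 are near-identical in sequence but differed in their pattern. Cyp2c40 was at or below 23.3 FPKM in the mean of 21 lines and between 48.6 and 216 FPKM in the other 8 lines (adjusted p = 2.23e-11). It was lowest in IL-670, with 4.82, 5.67 and 4.83 FPKM, and highest in IL-2750, with 279, 102 and 267 FPKM. The ratio of these line means was 42.3, and 17.7 without IL-1052 and IL-2750. Cyp2c68 was lowest in IL-670 as well, with 53.5, 56.7 and 52.4 FPKM, and highest in IL-1052, whose 2 mice had 104 and 447 FPKM (adjusted p = 3.1e-06). Without both lines the highest mean of Cyp2c68 was that of IL-3912, with 230 and 197 FPKM. Cyp2c67 had other extremes. It was highest in IL-2011, with 567 and 755 FPKM, and lowest in IL-4032, where 1 mouse had 92.8 FPKM, which makes 7.12-fold. Among the 21 lines with 2 or more mice, which edgeR compared, the ratio for Cyp2c67 was 4.45 (adjusted p = 0.000338).

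Cyp2c38 scattered most within lines, with a within-line SD of 1.13 on log2(FPKM + 1). Its line means ran from 1.74 FPKM in IL-1052, with 3.22 and 0.26 FPKM, to 105 FPKM in the 1 mouse of IL-2126. The highest and lowest line means were 60.5-fold apart, and 31.1-fold without IL-1052 and IL-2750. The adjusted p was 0.00645 in edgeR with IL-1052 and IL-2750 included. That test left out the lines with 1 mouse, IL-2126 among them. In IL-2680 mouse 4238 had 90.4 FPKM and its line mate 4239 had 0.41 FPKM, a ratio of 221. Cyp2c39, its closest relative, had 290 and 2.91 FPKM in the same mice. The 3 mice under 0.5 FPKM of Cyp2c38 thus came from IL-1052, IL-2750 and IL-2680.

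Cyp2c70 had the lowest ratio between lines and the lowest intraclass correlation of the 10 genes. Its line means lay between 216 FPKM in IL-4032 and 590 FPKM in IL-2680, a 2.73-fold difference, and the intraclass correlation was 0.164. It did not pass the threshold (adjusted p = 0.057 in edgeR). The mice of IL-2146 had 158 and 583 FPKM of Cyp2c70, and the adjusted p was 0.00344 or 0.000998 when either was left out. It was also under 0.05, between 0.0341 and 0.0481, without replicate 3 of IL-2156 or of IL-785, or without replicate 1 of IL-2750, IL-3348 or IL-3438.

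Across the 29 line means, the members were compared by Spearman's rho with each other and with all 5949 total-expression traits, in 59435 pairs. No pair reached an adjusted p under 0.05 with 100000 permutations (0% of the 59435 pairs in either direction), because the 10 pairs at the smallest p that this number allows had an adjusted p of 0.0594. With 2000000 permutations for the 31 pairs of smallest p, chosen after seeing this, 4 of the 45 member pairs passed, all positive, against 0.0101% of the 59435 pairs for positive and 0.00337% for negative correlations. At an unadjusted p under 0.05 there were 19 positive and 2 negative member pairs of 45, against 5.64% and 3.52% of the 59435 pairs. The median rho was 0.18 over the member pairs and 0.03 over all pairs.

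The 4 pairs that passed lay within the near-identical sets. Cyp2c37 and Cyp2c50 had a rho of 0.912 and a Pearson's r of 0.918 on log2(FPKM + 1) (adjusted p = 0.00594 with 2000000 permutations, n = 29 lines). After leaving out the 2 lines farthest from the median of Cyp2c37, the rank correlation was 0.892. For Cyp2c50 and Cyp2c54 rho was 0.896 and r 0.894, and for Cyp2c37 and Cyp2c54 rho was 0.80 and r 0.825 (adjusted p = 0.00594 for both by permutation). These 3 genes varied together from line to line. For Cyp2c40 and Cyp2c68 rho was 0.773 and r 0.769 (adjusted p = 0.0149 by permutation), and rho was 0.72 without the 2 lines farthest from the median of Cyp2c40. These 2 lines were IL-1052 and IL-2750. As the genes of each pair also share 50-base windows, fragments divided between them move both values, and the part of this in the correlations was not tested.

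Shared sequence did not always go with shared levels. Cyp2c40 and Cyp2c67, 97.7% identical, had a rho of -0.31 (permutation p = 0.0982, adjusted p = 0.622). Cyp2c67 and Cyp2c68, 97.15% identical, had a rho of -0.07. The lowest rho of all 45 pairs was that of Cyp2c37 with Cyp2c67, at -0.48 (permutation p = 0.00955, adjusted p = 0.438). It did not pass the adjustment. Cyp2c29 had rho values of 0.714 with Cyp2c54 and 0.612 with Cyp2c50 (adjusted p = 0.121 with 2000000 permutations and 0.299), and neither passed. Cyp2c44, away from the others on the chromosome, had a rho of 0.663 with Cyp2c40 (adjusted p = 0.229 by permutation). Cyp2c70 stayed between -0.13 and 0.43 with every other member over the 29 lines. Without IL-1052 and IL-2750 its rho ran from -0.305 with Cyp2c40 to 0.609 with Cyp2c67.

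**Figure D3:**
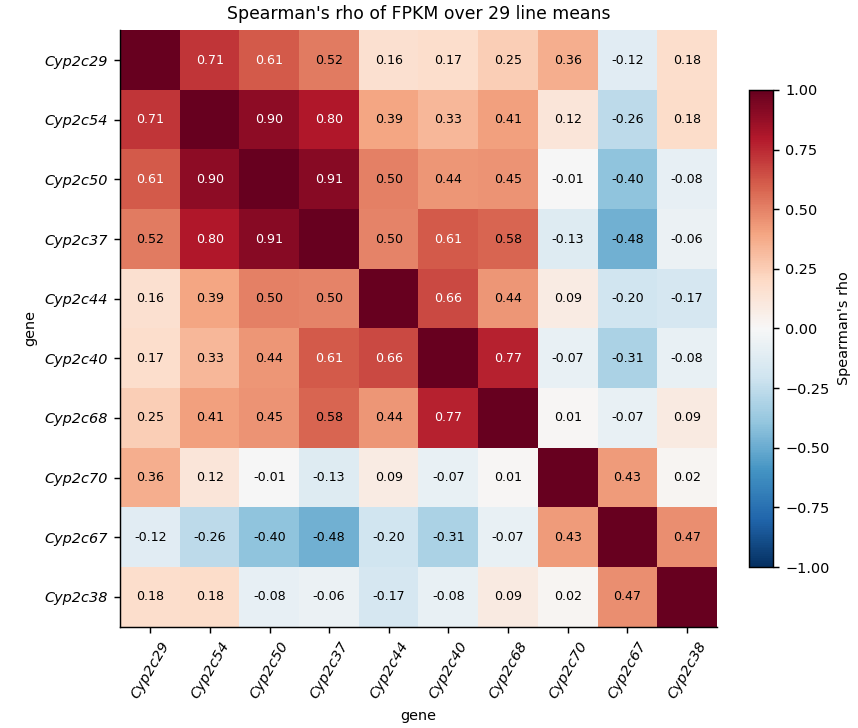
Spearman's rho of FPKM over 29 line means for each pair of the 10 genes, in red where positive and blue where negative. The block of Cyp2c37, Cyp2c50 and Cyp2c54 holds the highest values, from 0.80 to 0.91, and Cyp2c67 is negative with 7 of the other 9 genes.

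The pairs were also compared between mice of 1 line. When each mouse was expressed as its deviation from the line mean on log2(FPKM + 1), over 47 mice of 21 lines, Cyp2c37 and Cyp2c54 had a Pearson's r of 0.892. It was 0.60 for Cyp2c37 and Cyp2c50, 0.611 for Cyp2c50 and Cyp2c54, and 0.715 for Cyp2c40 and Cyp2c68. Cyp2c37 and Cyp2c40, of different sets, had 0.766. Without IL-1052 and IL-2750, over 42 mice of 19 lines, r was 0.9165 for Cyp2c37 and Cyp2c54, 0.80 for Cyp2c37 and Cyp2c50, 0.9175 for Cyp2c50 and Cyp2c54, 0.789 for Cyp2c40 and Cyp2c68, and 0.796 for Cyp2c37 and Cyp2c40. These values describe differences among mice that share a line, and carry no test.

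**Figure D4:**
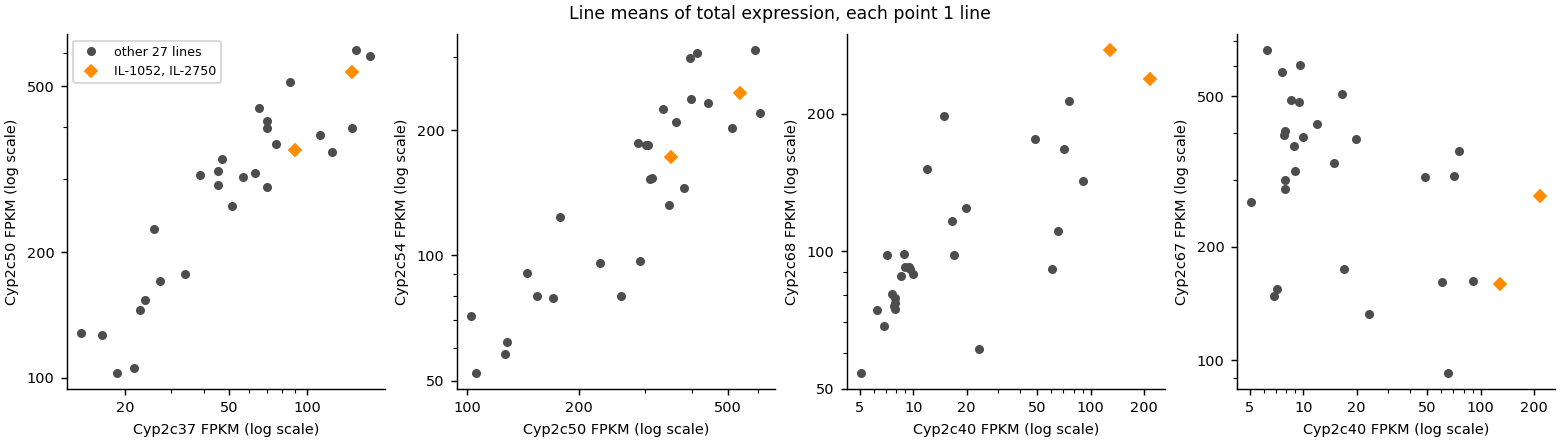
Line means of FPKM on logarithmic axes for 4 pairs of genes, with IL-1052 and IL-2750 as orange diamonds and the other 27 lines as grey points. The first 3 pairs climb together (rho 0.91, 0.90 and 0.77), whereas Cyp2c67 shows a rho below 0 with Cyp2c40 (rho -0.31).

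Without IL-1052 and IL-2750, rho over 27 lines was 0.91 for Cyp2c37 with Cyp2c50, 0.899 for Cyp2c50 with Cyp2c54, 0.811 for Cyp2c37 with Cyp2c54 and 0.72 for Cyp2c40 with Cyp2c68. In the 21 lines with 2 or more mice the corresponding values were 0.914, 0.868, 0.748 and 0.908. For Cyp2c40 with Cyp2c68 the 0.72 repeats the value given above, since the same 2 lines were left out there.

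The genes outside the 10 whose line means were most like those of a member were often other Cyp2c genes. For Cyp2c38 the nearest was Cyp2c39, with a rho of 0.887 (adjusted p = 0.00594 with 2000000 permutations), followed by the prolactin receptor gene Prlr, with 0.71. For Cyp2c40 it was Cyp2c69, with 0.845 (adjusted p = 0.00594 by permutation), followed by Dnajc2, with 0.716. Cyp2c69 was listed between 0 and 170 FPKM, and 34 of the 55 mice had less than 0.5 FPKM. The top of that range came from mice 4429 and 4431 of IL-2750, with 170 and 144 FPKM, while their line mate 4430 had 0.96 FPKM. Outside IL-1052 and IL-2750 the highest value was 31.55 FPKM, in IL-3912. The nearest to Cyp2c68 were Cyp2c69, with 0.712, and Ube2j2, with 0.656. Without IL-1052 and IL-2750 the rho of Cyp2c69 was 0.809 with Cyp2c40 and 0.645 with Cyp2c68. Cyp2c55 was the first for Cyp2c50, with 0.701, and the second for Cyp2c37, with 0.679, after Raet1d, with 0.682. The windows that Cyp2c40 shares with other genes, 72.1% of its own, occurred most in Cyp2c69, and those of Cyp2c38, 7.45%, most in Cyp2c39. The part of divided fragments in these values was not tested.

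Cytochrome b5, listed as Cyb5, was the nearest gene to Cyp2c54 and the second for Cyp2c50, with rho values of 0.729 and 0.651 (adjusted p = 0.0713 with 2000000 permutations and 0.229). It donates electrons to P450 enzymes. For Cyp2c29 the nearest were Ifi203, with 0.691, and Cyp2b10, the standard CAR target, with 0.684 (adjusted p = 0.1486 and 0.1585 with 2000000 permutations). The second for Cyp2c54 was the organic anion transporter gene Slco1a4, with 0.661. For Cyp2c67 they were Rps6, with 0.688, and the epoxygenase gene Cyp2j5, with 0.622. Cyp2c44 was nearest to Cutc, with 0.699, and Gm10768, with 0.683, both on chromosome 19. The first for Cyp2c70 was an unnamed gene, ENSMUSG00000093610, with 0.654, and the second Crybb3, with 0.546. Of these, Cyp2c39 and Cyp2c69 aside, none passed the adjustment. The 2 negative pairs that passed with 2000000 permutations were Cyp2c44 with Pgam1 (rho -0.79) and Cyp2c54 with Ppap2c (rho -0.77). Pgam1 lies on chromosome 19 as well, at chr19:41986361-41993154. Both pairs had an adjusted p of 0.0149 by permutation, and were singled out after their values were seen.

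Related gene groups also differed among lines, at shares around the 88.5% of all genes. Of the other Cyp2c genes, 3 of 3 tested passed (Cyp2c39, Cyp2c55 and Cyp2c69), while Cyp2c65 and Cyp2c66 did not exceed 0.3 and 0.06 FPKM in any mouse. Among the P450 electron donors, 3 of 4 passed. The oxidoreductase gene Por ran from 26.1 to 251 FPKM in its line means and Cyb5 from 898 to 2474, and Cyb5b had an adjusted p of 0.109 in edgeR. All 5 tested genes of epoxygenases and epoxide hydrolases outside the family passed, among them Ephx2, which opens the epoxides made by these enzymes, from 84.3 to 383 FPKM.

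Among 14 tested regulators of Cyp2c genes, 11 passed. The line means of Nr1i3, which encodes CAR, ran from 13.8 to 104 FPKM, and those of Hnf4a from 82.5 to 163 FPKM. Nr3c1, Onecut1 and Bcl6 had adjusted p-values of 0.0847, 0.28 and 0.477 in edgeR. All 8 CAR target genes passed, with Cyp2b10 between 0.14 and 35.4 FPKM. Nr1i3 had a rho of 0.604 with Cyp2c54, and Cyp2c29 had a rho of 0.585 with Gstm3, a glutathione transferase gene of the CAR list. The pericentral list passed for 8 of 8 genes and the periportal list for 8 of 8. Cyp2e1, a pericentral P450, had rho values of 0.615 with Cyp2c54, 0.567 with Cyp2c50 and 0.563 with Cyp2c37. Nr1i3, Gstm3 and Cyp2e1 are examples picked from their lists. None of the traits compared from the regulator (12), CAR (7) and pericentral (6) lists passed with a member.

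Of the 13 tested female-biased genes 13 passed, and of the 10 male-biased genes 9. Sult3a1 ran from 0 to 359 FPKM and Mup1 from 158 to 76721 FPKM in the line means. All 9 bile acid synthesis genes passed, among them Cyp7a1, the rate-limiting enzyme, from 2.97 to 94.1 FPKM. Of the genes of all these lists, Cyp2c39 with Cyp2c38 and Cyp2c69 with Cyp2c40 passed with a member (adjusted p = 0.00594 with 2000000 permutations). With 100000 permutations the pairs at the smallest p stood at an adjusted p of 0.0594, so the absence of calls at that number says nothing about those pairs. Of the list genes they held Cyp2c39, Cyp2c69 and Cyb5, and Cyb5 with Cyp2c54 had an adjusted p of 0.0713 with 2000000 permutations. Pairs above the smallest p did not pass either, such as Cyp2b10 with Cyp2c29 (adjusted p = 0.1585 with 2000000 permutations).

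The hepatocyte markers summed to 31803 to 88645 FPKM per mouse, which include Alb and Apoa1. The summed markers ran from 9.79 to 260 FPKM for Kupffer cells, from 13.1 to 68.1 for endothelial cells, from 28.8 to 181 for stellate cells, from 6.5 to 208 for cholangiocytes, from 446 to 4528 for red cells and from 1.66 to 120 for lymphocytes. None of these markers was at 0 in all mice. Over the line means, the summed lymphocyte markers had a rho of 0.499 with Cyp2c67 and the hepatocyte markers 0.416, and the red cell markers had -0.40 with Cyp2c54. Body weight had at most 0.325, with Cyp2c67, age at most 0.318, with Cyp2c38, and depth at most 0.374 in size, again with Cyp2c38. Their part in the levels was not tested.

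Isoform-ratio levels give how much of a gene RSEM assigned to 1 annotated transcript, in percent. Of 24 transcripts of the members, 10 of 4 genes had enough levels to be tested, and limma called all 10, against 27.5% of 21415 isoform traits. The 10 are not independent, since the shares of a gene add up to 100%. Cyp2c38, Cyp2c44, Cyp2c54, Cyp2c67 and Cyp2c68 have 1 transcript each, and the leading form of Cyp2c29 made up 97.7% or more in every mouse.

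Cyp2c37 and Cyp2c50 each have a form without exon 5, shown above. In Cyp2c37 this form (ENSMUST00000170108) made up 12.2% ± 10.5 of the gene over 29 line means (adjusted p = 0.0181 in limma). In Cyp2c50 (ENSMUST00000068094) it made up 22.0% ± 6.87 (adjusted p = 0.00629 in limma). Line IL-2146 stood apart in both genes. Its 2 mice had 68.8% and 45.4% in Cyp2c37 and 59.7% and 43.1% in Cyp2c50, with 787 or more estimated fragments assigned to the form. Only a part of the fragments tells the forms apart. Of the 50-base windows of this form, 3.48% in Cyp2c37 and 3.32% in Cyp2c50 occur in no other form of the gene. For the leading forms the shares are 12.6% and 8.45%. Of all windows of the forms without exon 5, 31.2% in Cyp2c37 and 32.6% in Cyp2c50 also occur in another gene, most in each other's. The 2 shares may therefore not be independent, which was not tested. In the other 28 lines the line mean was at most 33.8%, in IL-1513, with 44.3% and 23.3% in its mice, for Cyp2c37, and at most 26.3% for Cyp2c50.

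The relation between the 2 shares rested on this line. Over 29 lines Pearson's r was 0.72 (permutation p = 0.00818) and Spearman's rho 0.147 (permutation p = 0.442). Without IL-2146 r was 0.145 (permutation p = 0.465), and without the 2 lines farthest from the median of the Cyp2c37 share it was -0.07. The call for Cyp2c37 was lost without 1 mouse of IL-2146, with an adjusted p of 0.0568 in limma when its first mouse was left out. The leading form of Cyp2c50, ENSMUST00000080171 (74.0% ± 6.30, adjusted p = 0.0287 in limma), had 0.0829 and 0.0626 when either mouse was left out. The form of Cyp2c50 without exon 5 kept its call in every such fit.

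**Figure D5:**
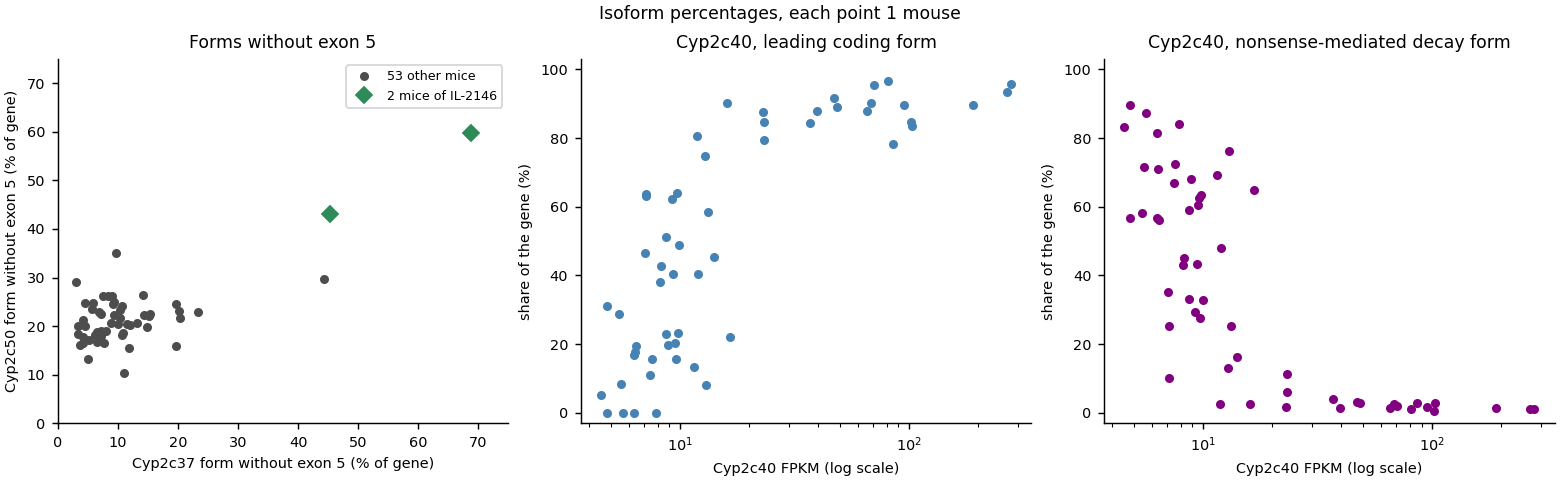
Isoform percentages with 1 point for each of 55 mice. On the left the forms of Cyp2c37 and Cyp2c50 without exon 5 are plotted against each other, and the 2 mice of IL-2146 lie apart at 68.8% and 45.4% of Cyp2c37. The other panels plot the leading and the nonsense-mediated decay form of Cyp2c40 against its FPKM on a logarithmic axis, where the former climbs and the latter falls.

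Cyp2c40 has 6 annotated forms, of which 3 were tested. The leading coding transcript (ENSMUST00000025969) made up 51.8% ± 31.8 over the line means, from 0% in IL-2693, with 1 mouse, to 95.6% in IL-2126 (adjusted p = 0.00305 in limma). A transcript annotated as a target of nonsense-mediated decay, the pathway that degrades messages with an early stop (ENSMUST00000162630), made up 34.5% ± 28.9 (adjusted p = 0.00141 in limma). A processed transcript, ENSMUST00000162434, made up 10.6% ± 4.66 (adjusted p = 0.00167 in limma). The study had also picked the isoform ratio of Cyp2c40 from these mice, so these are not independent calls. Of the 50-base windows of the leading form, 0% occur in no other form of the gene. For another coding form, ENSMUST00000160476, this share is 0.17%. The last exons of these forms are 417 and 420 bases long. The other form made up 0.76% ± 1.90 over the line means and 24.4% in its highest mouse. The split of fragments between both forms is uncertain, and its part in the share of the leading form was not tested.

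The decay form runs through a 62-base exon at chr19:39877262-39877323 (minus strand) that the leading form lacks, and it uses a shorter exon 4 of 90 in place of 161 bases. The exon is shown because near-copies of it lie in the related genes.
Cyp2c40 62-base exon: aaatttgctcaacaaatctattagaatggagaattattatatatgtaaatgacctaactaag
A copy with 2 mismatches lies within Cyp2c67 (chr19:39713347-39713408), 1 with 2 mismatches within Cyp2c69 (chr19:39950996-39951057) and 1 with 3 mismatches within Cyp2c68 (chr19:39809067-39809128).

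The share of the decay form was 84.0% in IL-2693 and 77.8% ± 18.4 (n = 3) in IL-670, at 7.87 and 5.11 FPKM of Cyp2c40. It was 0.94% ± 0.338 (n = 3) in IL-2750, and without IL-1052 and IL-2750 the lowest was 1.27% in IL-2146. Lines with little Cyp2c40 were not uniform, as IL-2689 had 10.1% at 7.1 FPKM and IL-219 had 19.1% at 10 FPKM. Over the 29 lines its rho with the FPKM of the gene was -0.78, and that of the leading form was 0.799 (adjusted p = 0.0385 for both by 100000 permutations over all pairs of a member share with a trait). Without IL-1052 and IL-2750 these were -0.73 and 0.761. Each share is a part of the gene's own total, so these p-values are no independent evidence of a relation. The pairs adjusted over also held shares of 1 gene set against each other, which are tied by construction. Of the 50-base windows of the decay form, 64.6% also occur in another gene, and the part of shared fragments in these shares was not tested. In FPKM the decay form spanned a narrower range than the leading form. Its line means lay between 0.38 and 10.4 FPKM, with a median of 3.18, and those of the leading form between 0 and 201, with a median of 4.85. The whole gene had 186 to 12753 estimated fragments per mouse, so that shares in the lowest mice rest on few fragments. Line mates could differ widely at this depth. Mice 4238 and 4239 of IL-2680 had 25.3% and 83.3% of the decay form, behind which stood 150 and 169 fragments.

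In Cyp2c70 a retained-intron form (ENSMUST00000164351) made up 8.51% ± 3.33 (adjusted p = 0.00238 in limma) beside the leading form with 90.1% ± 3.19 (ENSMUST00000051846, adjusted p = 0.00763 in limma). Its line means were highest in IL-4457, with 18.3% and 17.5%, and lowest in IL-2146, with 2.19% and 4.29%. Cyp2c70, whose total level did not pass, passed in its isoform ratio. The difference between both tests was not tested. Another form of Cyp2c50, ENSMUST00000124391, with a retained intron, is named because it was the remaining one tested. It made up 3.95% ± 1.29 and reached at most 5.85% in a line (adjusted p = 0.00126 in limma).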

How the data were processed

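RNA of 55 livers was sequenced from both ends over 50 bases from a stranded, polyA-selected library. The authors mapped fragments with Bowtie 2 and quantified them with RSEM version 1.2.18 on mm9 with an Ensembl annotation. The deposited expected counts are fragments that RSEM estimated per gene or isoform, with fragments that match several genes shared out. The deposited TPM and FPKM correct these for transcript length and library size. Isoform ratios were deposited in percent, as RSEM gives them for each transcript of a gene. A gene with near-identical relatives can therefore gain or lose fragments.

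Expected counts were rounded and tested with edgeR 4.0.16 (TMM normalization, filterByExpr, quasi-likelihood F test) in 47 mice of 21 lines, isoform ratios with limma 3.58.1 on van der Waerden scores, both adjusted by Benjamini-Hochberg with a threshold of 0.05. All 10 members passed the filter on low counts. Traits needed a maximum FPKM of 2 and 12 levels after rounding to the maximum divided by 200, at least 0.5. Intraclass correlations (one-way analysis of variance, on the scores) and correlations of line means used all 29 lines, the latter with 100000 two-sided permutations. Names, positions and sequences came from the GENCODE annotation and genome of the same build, where 22 of the 24 transcripts had an entry, 21 of equal length. The named genes are the members, their isoforms of 10% or more in a line, the 2 outside genes nearest to each member by rho, and examples from the lists. A Cyp2c40 form (ENSMUST00000160476) and a Cyp2c50 form (ENSMUST00000124391) of under 10%, Pgam1 and Ppap2c were named outside this rule, after their values were seen. Members and lists were chosen with earlier results of these data known. The labels name no batch and no separate cultures beyond the mouse. The tests were tried on simulated data. R 4.3.3, DESeq2 1.42.0, Python 3.11.15, numpy 2.4.6, scipy 1.17.1 and pandas 2.3.3 were used.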

Additional observations from a re-analysis of the deposited data

How the results depend on the processing

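No paired analysis was possible because replicate numbers were given in accession order and pair no mice across lines. Of the 10 members, 9 differed among lines in edgeR, and 9 or 10 did under each alternative and with each mouse left out. Cyp2c70 made the difference, with an adjusted p of 0.00680 in DESeq2's likelihood ratio test, 0.0352 with all 55 mice, 0.0482 with at least 10 counts in every mouse and 0.0344 with no filter. All 10 isoform traits passed in limma, 7 to 10 with each mouse left out, and 4 of 4 with 1 isoform per gene, where fewer are tested by construction. Of the member pairs 4 passed with 2000000 permutations, chosen after seeing the data. With 100000 none did, nor with TPM, Pearson's r, fewer lines or another pseudocount at 100000, where 10 pairs at the smallest p had an adjusted p of 0.0594 in the main setting. For pairs at the smallest p those counts of 0 say nothing about stability, and these alternatives were not run with more permutations. Without the 2 lines farthest from the median of the first gene, Cyp2c40 with Cyp2c68 had an adjusted p of 0.170 by permutation. The other pairs that passed had 0.0660 there. For Cyp2c40 the 2 lines left out were IL-1052 and IL-2750. In the 21 lines with 2 or more mice, Cyp2c37 with Cyp2c54 had a permutation p of 0.00023, and the others 2e-05 or less. The median intraclass correlation was 0.619 to 0.681 with each mouse left out. The ratio of highest to lowest line fell to 31.1 for Cyp2c38 and 17.7 for Cyp2c40 without IL-1052 and IL-2750, and to 4.45 for Cyp2c67 in lines with 2 or more mice. The relation of the Cyp2c37 and Cyp2c50 shares without exon 5 turned from an r of 0.72 to -0.07 without the 2 farthest lines. Shared fragments limit Cyp2c37, Cyp2c40, Cyp2c50, Cyp2c54, Cyp2c67 and Cyp2c68, and the few fragments of Cyp2c40 limit its shares in the lowest lines.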
